A study of Mus musculus with 16 samples.

Results

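The 6 miRNAs described here are hsa-miR-181b-5p, hsa-miR-708-5p, hsa-miR-361-5p, hsa-miR-186-3p, hsa-miR-324-3p and hsa-miR-425-5p, written below without the prefix hsa for human. They were taken by name from the 1205 human miRNAs on the array. The first 5 were chosen because their level outside the cells lay higher after 10 Gy than after 6 Gy, and miR-425-5p because it fell at 6 Gy, so these differences are given as descriptions without a test. No numerical threshold belonged to that choice.

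The RNA came from the culture supernatant of HCT116, an established human colorectal carcinoma line of epithelial origin, grown in RPMI1640 with 10% fetal bovine serum. Cultures received 0, 2, 6 or 10 Gy of X-rays at a high dose rate, and the supernatant was taken 72 h later. Each dose had 4 separately grown cultures, and each culture gave 1 one-colour array of 100 ng RNA labelled with Cy3, or 16 arrays in all. The 0 Gy cultures were the unirradiated controls and were grown in the same serum-containing medium. The organism field of the labels names mouse, whereas the cell line and the array contents are human, and the series' design text does not list the 2 Gy arrays, which were grouped by their own labels. One cell line was used, so the replicates are cultures of a single line, and RNA that serum brings into the medium could not be separated from RNA that the cells released.

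A miRNA guides an Argonaute protein to partly matching messenger RNAs, mainly through its seed, the short stretch near its 5′ end, and the bound messenger is repressed. Cells also release miRNAs into the medium, in vesicles or bound to proteins, and for this reason they are studied as markers of the response to radiation. A precursor hairpin can give a mature miRNA from either arm, named 5p and 3p, and one arm is usually the more abundant.

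Mature sequences are shown because the seed decides which of the 6 could share targets, and because the array must tell miR-181b-5p from close relatives. They are the mouse RefSeq entries of GRCm38.p6, the table at hand; as background, the human forms have the same seeds and differ at most at the 3′ end. Capitals mark the seed, bases 2 to 8 from the 5′ end.

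miR-181b-5p: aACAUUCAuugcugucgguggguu
miR-181a-5p: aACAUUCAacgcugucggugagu
miR-181d-5p: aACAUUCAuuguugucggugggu
miR-708-5p: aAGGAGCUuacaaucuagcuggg
miR-361-5p: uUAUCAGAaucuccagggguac
miR-425-5p: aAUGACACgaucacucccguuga

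The 4 chosen miRNAs among these have 4 different seeds, so they do not form a seed family. miR-181b-5p shares its seed with miR-181a-5p, from which it differs by U9A, U10C and G21A, and with miR-181d-5p, from which it differs by C12U, with positions counted from the 5′ base of miR-181b-5p. In the mouse genome miR-181b-5p is encoded at 2 loci, chr1:137966650-137966673 and chr2:38853845-38853868, both on the plus strand. miR-708-5p lies at chr7:96249450-96249472 on the plus strand, miR-361-5p at chrX:113074867-113074888 on the minus strand and miR-425-5p at chr9:108568789-108568811 on the plus strand. miR-186-3p and miR-324-3p are given by name.

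Levels are log2 of the scaled signal, in which 0 is the 75th percentile of the 518 probes detected on all 16 arrays and the floor for dim values is -4.60. All 6 miRNAs lay below 0 on every array, and they were among the 283 human miRNAs bright enough to be tested. Between 242 and 358 human miRNAs were detected per array, and no spot was saturated. A detected probe was present on 16 of 16 arrays for miR-181b-5p, miR-708-5p and miR-324-3p, on 15 for miR-361-5p and miR-186-3p, and on 10 for miR-425-5p. The arrays of 0 and 2 Gy shared 1 slide and those of 6 and 10 Gy the other, so dose and slide cannot be told apart when 6 or 10 Gy is set against 0 or 2 Gy. Within each slide the lower dose filled columns 1 and 2 and the higher dose columns 3 and 4, so dose and column cannot be told apart either.

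The software's labelling spike-in value, the log10 signal of synthetic RNA added to each sample before labelling, differed widely between arrays. The software marked it as in range on only 3 of 16 arrays, 0 Gy replicates 1 and 4 and 10 Gy replicate 2. Every 2 and 6 Gy array was thus out of range. The value ran from -0.699 to 3.04 without irradiation and from 0.306 to 2.10 after 2 Gy. After 6 Gy it ran from -0.699 to 1.79, and after 10 Gy from 1.82 to 2.71. Both labelling spike-ins were undetected on 2 arrays, 0 Gy replicate 3 and 6 Gy replicate 4. On 2 Gy replicate 1 and 6 Gy replicate 1, 1 of the 2 was undetected. Every 10 Gy array therefore lay above every 6 Gy array in this value too, by 1.41 on average, and the exact two-sided permutation p of 0.0286, the smallest that 70 regroupings can give, was 0.114 after adjustment over 4 comparisons. The same exact permutation test gave p = 0.629 for 2 against 0 Gy, p = 0.343 for 6 against 0 Gy and p = 0.971 for 10 against 0 Gy.

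All 6 miRNAs had the same order of mean levels, with 0 Gy highest, then 10 Gy, then 2 Gy, and 6 Gy lowest. The distance between neighbours in this order was often within the spread of the 4 cultures, though miR-186-3p lay lower at 6 than at 2 Gy without overlap, as did 3 of all 283 miRNAs (1.06%). Nothing is read from this, since 2 and 6 Gy were on different slides and the 6 Gy arrays entered the choice of miR-186-3p. In all 6, replicate 3 was the lowest 0 Gy culture, replicate 2 the highest 2 Gy culture and replicate 2 the highest 10 Gy culture. The 6 moved together across arrays, so nothing is read from the shared order of doses or of replicates. Equal amounts of RNA were labelled, and each array was scaled to its own signal. The levels are therefore relative to the other RNA on the array and are not amounts released. Less RNA released per cell and fewer releasing cells cannot be told apart in such samples either.

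**Figure D1:**
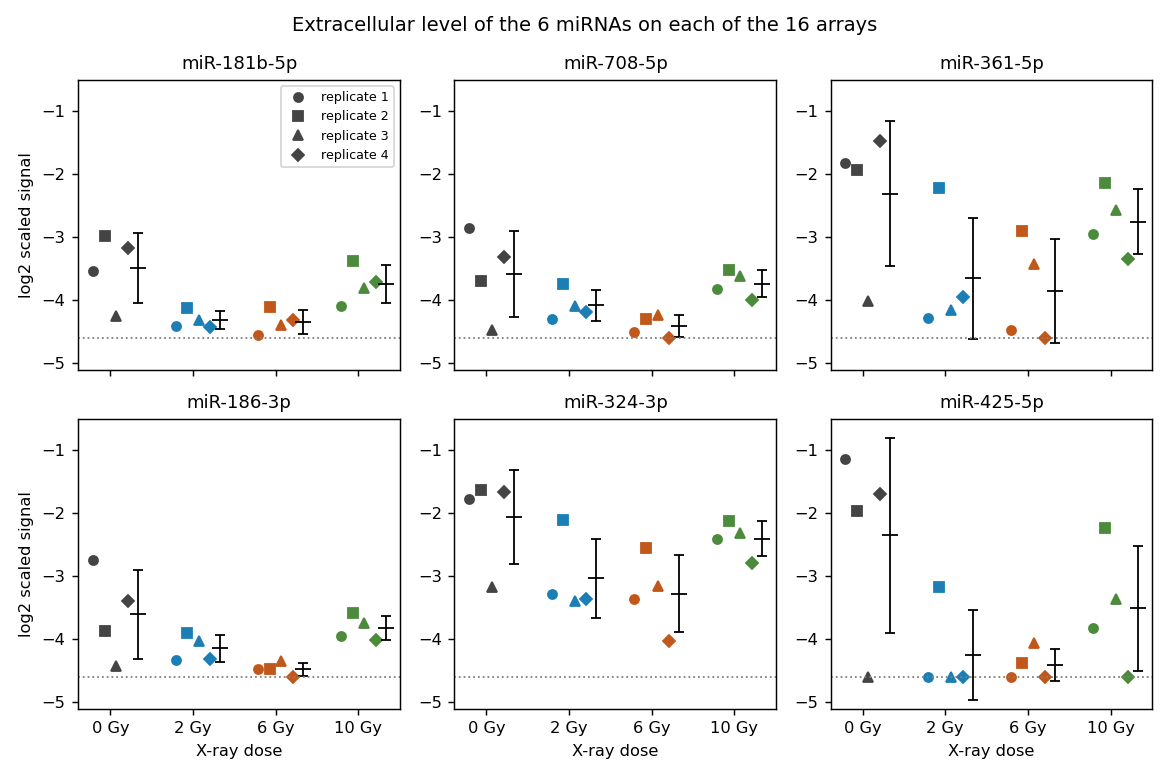
The log2 scaled signal (vertical axis) of each of the 6 miRNAs is plotted against X-ray dose for the 16 arrays, with symbols for replicate numbers, bars for the mean ± SD of 4 cultures and a dotted line at the floor of -4.60. In every panel the 0 Gy cultures spread widely with replicate 3 lowest, and the 10 Gy mean lies above the 6 Gy mean.

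miR-181b-5p belongs to a family known from lymphocyte development and from the control of NF-kB signalling in blood vessels. Its level was -3.54, -2.98, -4.25 and -3.18 in replicates 1 to 4 at 0 Gy, and -4.41, -4.12, -4.31 and -4.41 at 2 Gy. It was -4.56, -4.11, -4.40 and -4.31 at 6 Gy, and -4.08, -3.37, -3.80 and -3.71 at 10 Gy. Replicate 3 of 0 Gy sat among the 2 Gy cultures, so those doses overlapped, whereas all 10 Gy cultures lay above all 6 Gy cultures. The means were -3.48 ± 0.56, -4.31 ± 0.14, -4.34 ± 0.19 and -3.74 ± 0.30 at 0, 2, 6 and 10 Gy (SD, n = 4 each). The 10 Gy mean was 1.52-fold above the 6 Gy mean, a log2 difference of 0.60 ± 0.23 (SE).

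miR-708-5p, whose host gene is the teneurin gene TENM4, is known to be induced under stress of the endoplasmic reticulum. Its level was -2.86, -3.69, -4.47 and -3.32 at 0 Gy, and -4.30, -3.73, -4.08 and -4.18 at 2 Gy. It was -4.50, -4.29, -4.23 and -4.60 at 6 Gy, the last at the floor, and -3.81, -3.51, -3.62 and -3.99 at 10 Gy. The 6 and 10 Gy cultures did not overlap, and the 4 values at 10 Gy fell inside the range at 0 Gy. The 10 Gy mean of -3.73 ± 0.21 was 1.60-fold above the 6 Gy mean of -4.41 ± 0.17 (SD, n = 4 each), a log2 difference of 0.67 ± 0.26 (SE).

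miR-186-3p is the usually less abundant arm of a hairpin in an intron of ZRANB2. Its level was -2.74, -3.86, -4.41 and -3.39 at 0 Gy, and -4.33, -3.90, -4.03 and -4.31 at 2 Gy. It was -4.47, -4.47, -4.34 and -4.60 at 6 Gy, and -3.94, -3.58, -3.73 and -4.01 at 10 Gy. The 6 Gy cultures lay close to the floor and below every 10 Gy culture, and replicate 4 of 6 Gy was at the floor with no probe detected. The 10 Gy mean of -3.82 ± 0.20 was 1.57-fold above the 6 Gy mean of -4.47 ± 0.11 (SD, n = 4 each), a log2 difference of 0.65 ± 0.26 (SE).

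miR-361-5p lies in an intron of CHM and is known to repress the angiogenic factor VEGFA. Its level was -1.82, -1.93, -4.01 and -1.47 at 0 Gy, and -4.28, -2.22, -4.15 and -3.95 at 2 Gy. It was -4.48, -2.89, -3.42 and -4.60 at 6 Gy, and -2.95, -2.14, -2.57 and -3.34 at 10 Gy. The -4.60 at 6 Gy is the floor, with no probe detected, so the level there and the 6 Gy mean are only bounded. Replicate 3 stood far below the other 0 Gy cultures and replicate 2 far above the other 2 Gy cultures, and 6 Gy replicate 2 reached into the 10 Gy range. The 10 Gy mean of -2.75 ± 0.52 was 2.14-fold above the 6 Gy mean of -3.85 ± 0.83 (SD, n = 4 each), a log2 difference of 1.10 ± 0.59 (SE).

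miR-324-3p comes from the 3′ arm of a hairpin whose 5′ arm is known to restrain Hedgehog signalling. Its level was -1.77, -1.63, -3.16 and -1.67 at 0 Gy, and -3.27, -2.10, -3.39 and -3.36 at 2 Gy. It was -3.36, -2.55, -3.15 and -4.03 at 6 Gy, and -2.41, -2.12, -2.31 and -2.78 at 10 Gy. The 10 Gy cultures were tightly grouped, and 6 Gy replicate 2 lay above the lowest of them. The 10 Gy mean of -2.41 ± 0.28 was 1.82-fold above the 6 Gy mean of -3.27 ± 0.61 (SD, n = 4 each), a log2 difference of 0.87 ± 0.39 (SE).

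miR-425-5p shares a cluster in the host gene DALRD3 with miR-191. Its level was -1.14, -1.96, -4.60 and -1.70 at 0 Gy, and -4.60, -3.17, -4.60 and -4.60 at 2 Gy. It was -4.60, -4.37, -4.05 and -4.60 at 6 Gy, and -3.82, -2.24, -3.36 and -4.60 at 10 Gy. A value of -4.60 is the floor, so the level there is only bounded. A probe of miR-425-5p was detected on 4, 1, 2 and 3 of the 4 arrays at 0, 2, 6 and 10 Gy. The mean at 6 Gy was 2.06 ± 0.65 (SE) on the log2 scale, or 4.16-fold, below that at 0 Gy, yet 0 Gy replicate 3 lay at the floor with the 6 Gy cultures, so the groups overlapped. With normexp background correction the difference was -0.92, and with the spike-in value as a covariate -1.30. The 10 Gy mean of -3.51 ± 0.99 (SD, n = 4) was between the 6 Gy mean of -4.41 ± 0.26 and the 0 Gy mean of -2.35 ± 1.54.

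Across the 6 miRNAs, 3 did not overlap between 10 and 6 Gy (miR-181b-5p, miR-186-3p and miR-708-5p) and 3 did. Of all 283 tested miRNAs, 23 (8.13%) lay higher at 10 Gy without overlap and 7 (2.47%) lower, and nothing is read from the comparison, since the 6 were chosen on it. The median log2 difference of the 6 was 0.77 and that of all 283 was 0.00304, and 144 of the 283 had the higher mean at 10 Gy. From the highest, miR-361-5p ranked 18, miR-425-5p 29, miR-324-3p 31, miR-708-5p 39, miR-186-3p 42 and miR-181b-5p 46 of 283. limma's test with Benjamini-Hochberg adjustment passed 0 (0%) of the 283 between 10 and 6 Gy, with 42 at an unadjusted p under 0.05.

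Arrays of equal replicate number were also compared, as a further description of the values that chose the miRNAs. The difference of 10 minus 6 Gy was 0.47 to 0.74 for miR-181b-5p and 0.62 to 0.78 for miR-708-5p. It was 0.53 to 0.89 for miR-186-3p, 0.76 to 1.52 for miR-361-5p and 0.42 to 1.25 for miR-324-3p. In these 5 miRNAs all 4 numbered differences were above 0, whereas miR-425-5p had 3 above 0, the largest 2.14, and 1 of 0, where both arrays were at the floor. Among all 283 miRNAs, 59 (20.8%) had all 4 numbered differences above 0. Nothing is read from these counts, and for the 3 miRNAs whose groups do not overlap any pairing would give 4 of 4. A fit of the 8 arrays of slide 2 with the replicate number as a block, chosen after the values were seen, passed 55 of 283 between 10 and 6 Gy in limma with Benjamini-Hochberg adjustment, 36 of them higher and 19 lower at 10 Gy.

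**Figure D2:**
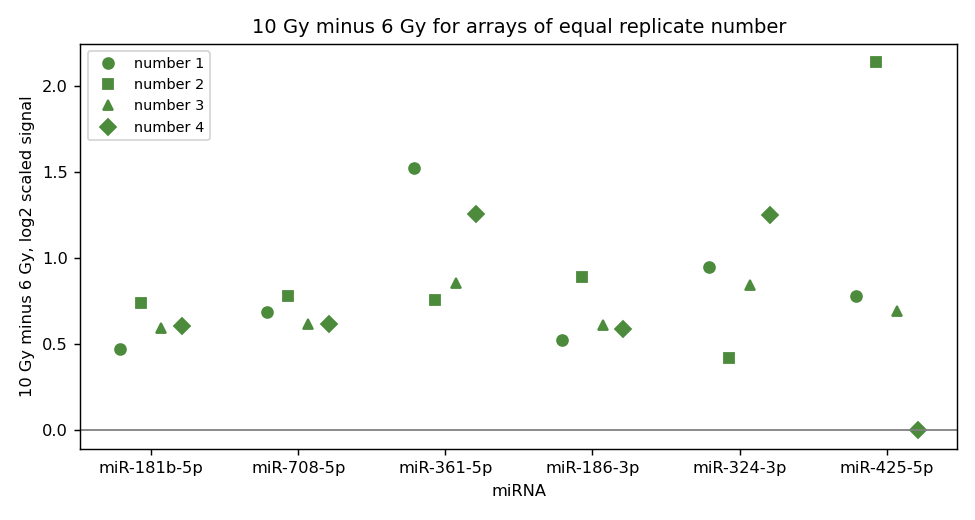
The difference in log2 scaled signal between the 10 Gy and the 6 Gy array of equal replicate number (vertical axis) is plotted for each of the 6 miRNAs, with a symbol for each number and a grey line at 0. All points lie above 0 but that of miR-425-5p for number 4, where both arrays were at the floor.

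The level of the 6 miRNAs moved with the labelling spike-in value. Over the 16 arrays Pearson's r with that value was 0.67 for miR-181b-5p, 0.86 for miR-708-5p, 0.84 for miR-361-5p, 0.78 for miR-186-3p, 0.81 for miR-324-3p and 0.73 for miR-425-5p, and Spearman's rho ran from 0.81 to 0.97. These are descriptions without a test, since the arrays that chose the miRNAs enter them. Without the 2 arrays farthest from the median, on which the spike-ins were undetected, r was 0.78 to 0.88, and after taking out the dose means it was 0.68 to 0.87. Among all 283 miRNAs r had a median of -0.25, a 10th percentile of -0.75 and a 90th percentile of 0.76, and from the highest miR-708-5p ranked 2, miR-361-5p 6, miR-324-3p 13, miR-186-3p 23, miR-425-5p 41 and miR-181b-5p 58.

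With the spike-in value as a covariate in the fit, the log2 difference of 10 over 6 Gy shrank in all 6. It was 0.32 ± 0.19 for miR-181b-5p, 0.26 ± 0.15 for miR-708-5p, 0.29 ± 0.19 for miR-186-3p, 0.15 ± 0.35 for miR-361-5p, 0.26 ± 0.25 for miR-324-3p and -0.071 ± 0.45 for miR-425-5p (SE). Thus miR-425-5p no longer lay higher at 10 Gy, and for miR-361-5p the difference was smaller than its error. Every 10 Gy array lay above every 6 Gy array in the spike-in value, so dose and labelling cannot be told apart in this fit. The value of -0.699 stands for undetected spike-ins on 2 arrays and entered the fit as if measured. A fit with the covariate and without those 2 arrays was not run.

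**Figure D3:**
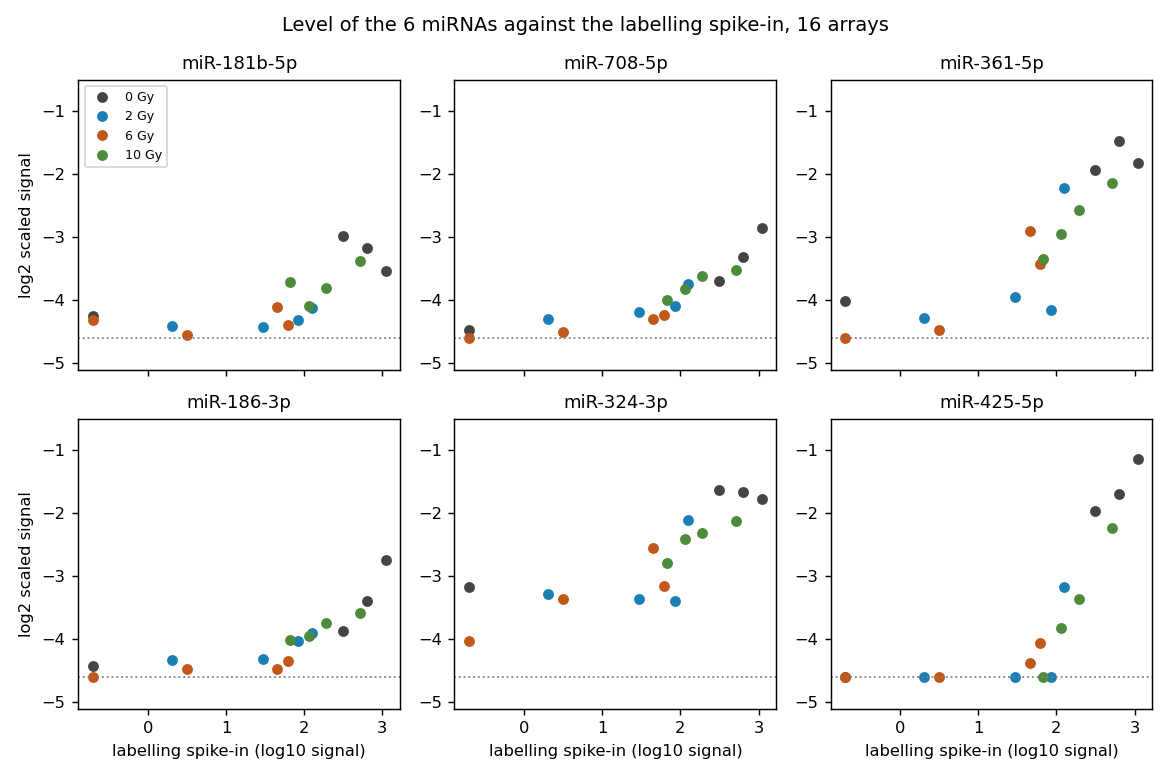
The log2 scaled signal of each of the 6 miRNAs (vertical axis) is plotted against the log10 labelling spike-in value of the same array, coloured by dose, with a dotted line at the floor of -4.60. In every panel arrays with a higher spike-in value tend to have the higher level, with r between 0.67 and 0.86 over the 16 arrays.

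The first 5 miRNAs were chosen on 10 against 6 Gy, and the difference between 2 and 0 Gy is taken from other arrays, so it was tested for them. The test is not fully separate from the choice. Its error was estimated from the spread at all doses, so the 6 and 10 Gy arrays entered it. miR-181b-5p fell at 2 Gy, by 0.83 ± 0.23 (SE) on the log2 scale or 1.77-fold, with a 95% interval of -1.31 to -0.34 and an adjusted p of 0.0333 (limma, Benjamini-Hochberg over 283 miRNAs). It was 1 of 5 that passed, beside 36 of 283 (12.7%) among all miRNAs, of which 17 (6.01%) rose and 19 (6.71%) fell. Of the 2 probes of miR-181b-5p, 1 was detected on all arrays of a dose only at 0 Gy, and it gave -0.76. The other, detected on all 16 arrays, gave -0.89. By replicate number the difference of miR-181b-5p ran from -1.24 to -0.058. Arrays of equal number did not deviate together for 2 and 0 Gy (r -0.76 to 0.75), so nothing is read from this pairing. The exact two-sided permutation p of miR-181b-5p was 0.0571, and its adjusted p over the alternatives ran from 0.000379 to 0.381. Fitted on the 0 and 2 Gy arrays alone, its difference was -0.83 ± 0.26 (SE). It did not pass limma's test there, with an adjusted p of 0.128. The call was lost when any 1 of 0 Gy replicates 1, 2 and 4 or 2 Gy replicates 1, 3 and 4 was left out, with adjusted p of at most 0.0992 and differences of -0.84 to -0.65.

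The other 4 did not pass. The differences of 2 minus 0 Gy were -0.97 ± 0.39 for miR-324-3p (adjusted p = 0.0972), -1.34 ± 0.59 for miR-361-5p (adjusted p = 0.122), -0.54 ± 0.26 for miR-186-3p (adjusted p = 0.146) and -0.49 ± 0.26 for miR-708-5p (adjusted p = 0.179), from the same limma fit with SE. By replicate number the differences ran from -1.70 to -0.23 for miR-324-3p and from -2.48 to -0.14 for miR-361-5p. They ran from -1.59 to 0.38 for miR-186-3p and from -1.44 to 0.39 for miR-708-5p, and nothing is read from this pairing either. For miR-425-5p, whose choice used the 0 Gy arrays, the difference was -1.89 ± 0.65 and is not tested. The median over the 6 was -0.90, against 0.03 over all 283. Nothing is read from this contrast, since the 6 moved together across arrays (Pearson's r 0.72 to 0.98). They also include miR-425-5p, which was detected on all arrays of a dose only at 0 Gy.

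One unirradiated culture decided much of this comparison. All 6 overlapped between 2 and 0 Gy, beside 12 of 283 (4.24%) that lay lower at 2 Gy without overlap, but without 0 Gy replicate 3, an omission chosen after the values were seen, every 2 Gy culture lay below every remaining 0 Gy culture in all 6. The same was true of 69 of all 283 miRNAs (24.4%). Without that array, limma's adjusted p was 0.00502 for miR-708-5p (-0.79), 0.00306 for miR-361-5p (-1.47), 0.00620 for miR-186-3p (-0.81) and 0.00576 for miR-324-3p (-1.34). In that fit 158 of 317 miRNAs passed. The filter, scaling and floor were redone for it, so its differences rest on another set of probes than the main fit. Both labelling spike-ins were undetected on that array, and what this had to do with its low levels was not tested. Without 2 Gy replicate 2, the highest of its group, miR-361-5p (-1.82) and miR-324-3p (-1.29) passed, each with an adjusted p of 0.0307 in limma, beside 87 of all 283 miRNAs.

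Against 0 Gy, the 6 Gy means lay lower by log2 differences of -0.86 ± 0.23 for miR-181b-5p, -0.82 ± 0.26 for miR-708-5p, -0.87 ± 0.26 for miR-186-3p, -1.54 ± 0.59 for miR-361-5p and -1.21 ± 0.39 for miR-324-3p (SE). With normexp background correction these were -0.31, -0.26, -0.27, -0.71 and -0.67. The 10 Gy means lay lower by less, with -0.25 ± 0.23 for miR-181b-5p, -0.15 ± 0.26 for miR-708-5p, -0.22 ± 0.26 for miR-186-3p, -0.44 ± 0.59 for miR-361-5p, -0.35 ± 0.39 for miR-324-3p and -1.15 ± 0.65 for miR-425-5p. For miR-361-5p, miR-324-3p, miR-186-3p and miR-708-5p the 10 Gy difference was within its error. All of these share the 0 Gy arrays and cross the slides, and all 6 overlapped between 6 and 0 Gy, where 10 of 283 (3.53%) lay lower without overlap. Among all 283 miRNAs limma passed 55 (19.4%) at 6 against 0 Gy, 38 of them lower (13.4%), and 1 (0.353%) at 10 against 0 Gy.

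**Figure D4:**
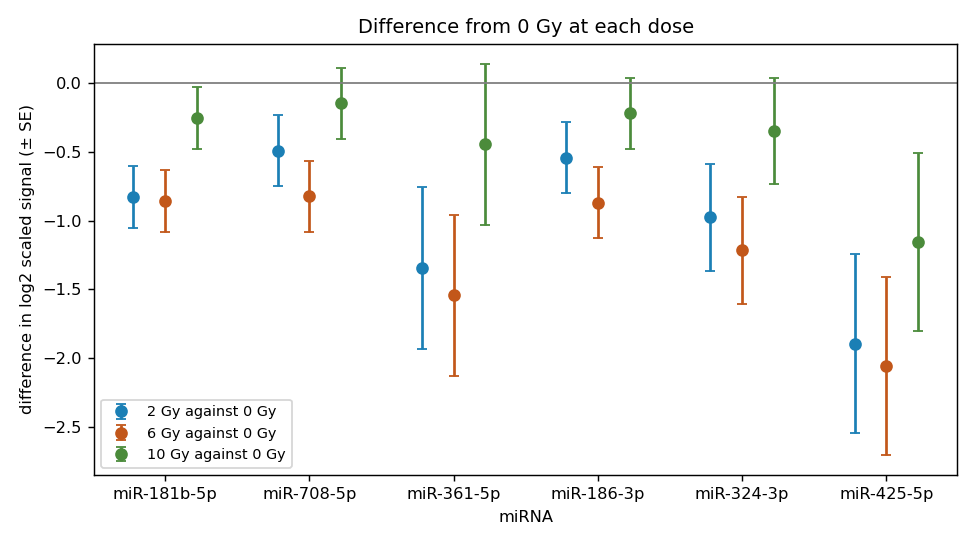
The difference in log2 scaled signal from 0 Gy (vertical axis, points with ± SE bars from the limma fit) is plotted for each of the 6 miRNAs at 2, 6 and 10 Gy. In each miRNA the 6 Gy point is lowest, the 2 Gy point lies between and the 10 Gy point is nearest to 0.

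Different probes for the same miRNA gave close 10 over 6 Gy differences for miR-181b-5p (0.54 to 0.67 over 2 probes), miR-708-5p (0.63 to 0.73 over 4) and miR-324-3p (0.85 to 0.88 over 2). For miR-361-5p the probe used gave 1.10 and the dimmer one that was left out 0.34. One of the 4 probes of miR-186-3p was left out because it was dim.

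The relatives of the 6, by seed, by hairpin or by cluster, gave 19 names, of which 17 were on the array, 10 were never detected and 5 could be tested. None of the 5 (0) passed limma's adjusted test in any of the 4 comparisons. miR-181a-5p, the more studied member of the miR-181 family, was measured at -2.14, -1.78, -3.89 and -1.87 at 0 Gy, and at -3.84, -2.66, -4.13 and -4.05 at 2 Gy. It was -3.99, -2.79, -3.58 and -4.60 at 6 Gy and -3.13, -2.32, -2.69 and -3.24 at 10 Gy, again with replicate 3 lowest at 0 Gy and overlap between 6 and 10 Gy. Its log2 differences were -1.25 ± 0.49 at 2 against 0 Gy (adjusted p = 0.0940), -1.32 at 6 against 0 Gy (adjusted p = 0.0594) and 0.89 ± 0.49 at 10 against 6 Gy (adjusted p = 0.326). miR-181d-5p, which is a single base from miR-181b-5p, stayed near the floor, with means from -4.54 at 6 Gy to -4.26 at 10 Gy and a 10 over 6 Gy difference of 0.29 (adjusted p = 0.321). How far the probes tell these relatives apart was not tested.

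The other arms of the same hairpins showed other patterns of values. miR-186-5p, the main arm of its hairpin, had a mean of -3.46 ± 0.59 without irradiation. With rising dose its means were -4.38 ± 0.37, -3.74 ± 0.68 and -3.82 ± 0.35 (SD, n = 4 each). Its 10 over 6 Gy difference was -0.08 ± 0.34 (adjusted p = 0.890), and its difference of 2 from 0 Gy was -0.92 ± 0.34 (adjusted p = 0.0837). miR-425-3p stayed between -4.05 and -3.50 on all 16 arrays, and its 10 over 6 Gy difference was -0.21 ± 0.12 (adjusted p = 0.326). Its cluster neighbour miR-191-3p stayed between -2.96 and -2.25, with a 10 over 6 Gy difference of -0.18 (adjusted p = 0.396). The difference between an arm and its partner was not tested. miR-324-5p was detected on 5 arrays, miR-361-3p on 1, and miR-191-5p and miR-708-3p on 0.

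**Figure D5:**
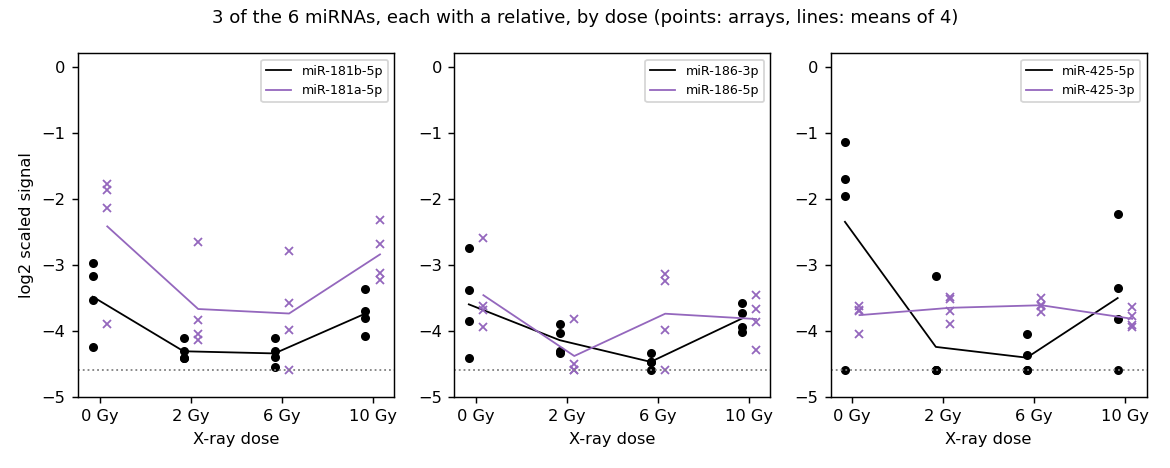
The log2 scaled signal (vertical axis) is plotted against X-ray dose for miR-181b-5p with miR-181a-5p, miR-186-3p with miR-186-5p and miR-425-5p with miR-425-3p, with a point for each array, lines through the means of 4 and a dotted line at the floor of -4.60. miR-181a-5p follows the dip of miR-181b-5p at 2 and 6 Gy, whereas miR-425-3p keeps between -4.05 and -3.50.

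The 6 miRNAs resembled each other across the 16 arrays, with Pearson's r between 0.72 and 0.98 over the 15 pairs and between 0.45 and 0.97 within doses. The points share the arrays, their labelling and the scaling, so these values are descriptions. miR-708-5p and miR-186-3p were the most alike, at r = 0.98. The closest other pattern was that of miR-221-3p for miR-181b-5p (r = 0.94), miR-200c-3p for miR-361-5p (r = 0.99), miR-29a-3p for miR-324-3p (r = 0.99) and the array's miR-1274a for miR-425-5p (r = 0.96). After each other, miR-708-5p was nearest to miR-3617-5p (r = 0.96) and miR-186-3p to miR-1911-5p (r = 0.98). Among the pairings of the 6 with other tested miRNAs, r had a median of -0.33 and a 90th percentile of 0.83.

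The labelled epithelial origin was checked on miR-200c-3p, miR-141-3p and miR-21-5p, which are abundant in colorectal epithelium. All 3 were detected, on 15, 15 and 11 of 16 arrays. Their summed scaled signal, on a linear scale, ran from 0.336 to 2.61 in unirradiated cultures, and from 0.235 to 1.42 after 2 Gy. After 6 Gy it ran from 0.00880 to 0.566, and after 10 Gy from 0.354 to 1.01. Of the red blood cell list 1 of 3 was detected, miR-486-5p, whereas miR-451a and miR-144-3p were detected on 0 arrays. Its sum stayed between 0.0540 and 0.0793 at all doses. Among 4 miRNAs of white cells and platelets 1 was detected, miR-155-5p, with miR-142-3p, miR-223-3p and miR-150-5p on 0 arrays and a sum from 0.0840 to 0.130. The liver miRNA miR-122-5p, which circulates in serum, was detected on 4 arrays, with 0.0277 as its highest signal. Of 3 muscle miRNAs listed, miR-1 was not matched by name and not analysed here, and miR-133a-3p and miR-206 were detected on 16 arrays, with a sum from 0.0879 to 0.132. Thus both ends of the range of the summed epithelial markers were lowest at 6 Gy, but that range overlapped those of the other doses. The comparison with 0 and 2 Gy also crosses the slides. The part of these markers in the pattern of the 6 miRNAs was not tested.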

How the data were processed

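Deposited one-colour intensities were the scanner software's processed signals (per the file headers, version 11.5.1.1 of Agilent's Feature Extraction), and its flags gave detection. Each array was divided by its 75th percentile over the 518 probes detected on all arrays, floored at the 5th percentile of detected probes (median over arrays, 0.0412 of scaled signal, 4.17% of values) and log2-transformed. Spots were averaged per probe. Probes detected (over 0.5 of spots well above background) on all arrays of any dose were kept, 592 probes averaged to 283 miRNAs. limma 3.58.1 in R 4.3.3 fitted 1 mean per dose to the 16 arrays, two-sided, with Benjamini-Hochberg adjustment over the 283 and a threshold of 0.05. The script was tested on simulated data. Same-numbered arrays deviated together for 10 and 6 Gy (r 0.23 to 0.72, 4 of 4 above 0.1), but not for 2 and 0 Gy (2 of 4), and the labels name no shared batch. The miRNAs, relatives and markers were chosen with earlier results of these data known. Named were the 6 miRNAs, their relatives by sequence and locus, and for each the nearest by r. Alternatives covered scaling, background correction, the filter, the floor, blocks, the spike-in covariate and each array left out. When an array was left out, the filter, scaling and floor were redone without it. Precision is limited by 4 arrays per dose. Whether cultures sharing a number were grown together is not stated.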

Additional observations from a re-analysis of the deposited data

Results flagged for a closer look

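In 5 of 32 groups of 4 arrays examined, 1 array stood apart from its group by a gap above Dixon's critical value; chance gives about 1 in 20, or 5%. At 2 Gy, replicate 2 stood above the rest for miR-361-5p (-2.22), miR-324-3p (-2.10) and miR-425-5p (-3.17, the other 3 at the floor). At 0 Gy, replicate 3 stood below the rest for miR-324-3p (-3.16) and for the labelling spike-in value (-0.699).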

How the results depend on the processing

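With only probes detected on all arrays, miR-361-5p, miR-186-3p and miR-425-5p dropped out and could not be assessed. Otherwise the 10 over 6 Gy differences of the 6 miRNAs kept their direction under every alternative run, except miR-425-5p with the spike-in covariate (-0.071). With that covariate the differences were 0.32, 0.26, 0.15, 0.29 and 0.26 for miR-181b-5p, miR-708-5p, miR-361-5p, miR-186-3p and miR-324-3p. Without scaling they were 0.064 (miR-181b-5p), 0.29 (miR-708-5p), 0.28 (miR-186-3p) and 0.38 (miR-324-3p), and with normexp background 0.31, 0.31 and 0.29 for the first 3. miR-186-3p gave 0.94 with the scanner's total signal, 0.49 with no filter and 0.90 with the floor halved. With the floor halved miR-361-5p gave 1.35 and miR-425-5p 1.37. Leaving out 1 array gave 0.48 to 0.72, 0.58 to 0.80, 0.71 to 1.41, 0.58 to 0.76, 0.59 to 1.11 and 0.48 to 1.32 for miR-181b-5p, miR-708-5p, miR-361-5p, miR-186-3p, miR-324-3p and miR-425-5p. The 10 minus 0 Gy difference turned positive for miR-708-5p under scaling over all probes (0.056), for miR-181b-5p (0.00226), miR-708-5p (0.048) and miR-186-3p (0.025) under normexp, and without 0 Gy replicate 1 for miR-708-5p (0.089) and miR-186-3p (0.069), with ranges over single arrays left out of -0.44 to 0.089 and -0.49 to 0.069.

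At 6 against 0 Gy the 6 kept their direction under the alternatives that retained them. Normexp moved miR-181b-5p to -0.31, miR-708-5p to -0.26, miR-186-3p to -0.27 and miR-425-5p to -0.92.

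At 2 against 0 Gy, miR-181b-5p lost its call in limma under scaling over all probes (-0.44), no scaling (-0.69), quantile normalization (-0.58), normexp (-0.31), total signal (-0.74), and, at an unmoved -0.83, with no filter, with slide 1 alone and by exact permutation. In limma it kept its call at -0.83 with the replicate block (adjusted p = 0.0203) and with the slide row as a block (adjusted p = 0.0286). The same held at -0.83 with the floor halved (adjusted p = 0.0314). It also kept its call with only probes detected on all arrays (-0.89, adjusted p = 0.0234) and with the covariate (-0.73, adjusted p = 0.00962). miR-324-3p passed with the replicate block (-0.97) and with the covariate (-0.78), as did miR-361-5p with the covariate (-1.03). Without both arrays lacking spike-in signal (chosen after seeing the data), miR-708-5p (-0.75), miR-361-5p (-1.41), miR-186-3p (-0.77) and miR-324-3p (-1.31) passed. Leaving out 1 array gave -1.08 to -0.65 for miR-181b-5p, -0.79 to -0.25 for miR-708-5p, -1.82 to -1.06 for miR-361-5p, -0.81 to -0.25 for miR-186-3p and -1.34 to -0.83 for miR-324-3p.

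The number of all miRNAs passing limma's adjusted test at 2 against 0 Gy (36) was 129 (111 higher, 18 lower) with scaling over all probes, 0 without scaling (36 at unadjusted p under 0.05), 72 (53 higher, 19 lower) with quantile normalization, 19 (7 higher, 12 lower) with normexp, 0 with no filter (136 unadjusted), 68 with the replicate block, 74 with the covariate, 0 with slide 1 alone (69 unadjusted) and 186 without both arrays. At 6 against 0 Gy (55) these were 177 (148 higher, 29 lower), 0 (62 unadjusted), 109 (73 higher, 36 lower), 34 and 0 (166 unadjusted), with 86 (46 higher, 40 lower) for total signal, 35 (15 higher, 20 lower) for probes detected on all arrays, 29 for the covariate and 180 without both. At 10 against 6 Gy (0) it was 1 with no filter, 1 with the covariate and 55 with the replicate block on slide 2. Leaving out 1 array gave 0 to 158, 0 to 185 and 0 to 0. At 2 against 0 Gy it was 0 without 2 Gy replicate 1 or 4, and 158 of 317 tested without 0 Gy replicate 3. At 6 against 0 Gy it was 185 of 317 tested without 0 Gy replicate 3, and 0 without another 0 Gy array or without 6 Gy replicate 4. Scaling over all probes moved the median of all 283 at 2 against 0 Gy from 0.03 to 0.40. Fits with no filter are unreliable, since most miRNAs then have no variance between cultures. The causes were not tested.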
